A study of Rattus norvegicus with 125 samples.

Results

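The brains of rats killed 6 h after an exposure to plain air were compared with those of rats killed 1 h after it, to show how far the control brain itself moved over the first hours of a phosphine inhalation study. The comparison used 8 of the 125 arrays of the series, chosen by their titles: 4 Air brains at 6 h (rats 126, 132, 138 and 156) and 4 Air brains at 1 h (rats 96, 107, 163 and 168), with 1 array per rat. All rats were adult male Sprague-Dawley rats of 300 to 400 g, housed singly on a cycle of 12 h of light with free food and water. Air rats were exposed to 0 ppm of phosphine for 40 min, and the phosphine (PH3) rats used for comparison to 387 ppm for 40 min, a product of 15480 ppm x min. Every rat, at every time, was killed by exsanguination under xylazine at 10 mg/kg and ketamine at 90 mg/kg. RNA was taken from frozen, ground brain tissue. The labels name no brain region and give neither the hour of day at which a rat was killed nor a hybridization or scan batch. Air brains at 3 h and 24 h, PH3 brains at 6 h and 1 h and the hearts and kidneys of the same 8 Air rats, 4 arrays in each group, were set beside the comparison.

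Signals are given as log2 values, so that a difference of 1 is a 2-fold change. The array holds 31139 probe sets, of which 19069 carry 1 gene symbol and were tested, and for each of 13439 genes the values are those of the probe set that was brightest, on average, over all 32 brain arrays. Adjusted p-values are from limma over all brain arrays with Benjamini-Hochberg adjustment over the 19069 probe sets, with 0.05 as the threshold, and errors of differences are standard errors. Each p-value measures the spread between single rats.

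Immediate early genes are switched on within minutes of synaptic activity or stress without new protein synthesis, and most of their messenger RNAs decay within hours. Many encode transcription factors, such as the zinc finger proteins of the Egr family, the orphan nuclear receptors of the Nr4a family and the Fos and Jun subunits of AP-1, while others, such as Arc, act at the synapse. The circadian clock is a second source of change between hours of the day: CLOCK and BMAL1 drive Per and Cry genes, whose proteins repress them, along with output genes such as Dbp.

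No probe set passed the threshold between 6 h and 1 h in Air brain (0 of 19069, or 0%; smallest adjusted p = 0.233). At an unadjusted p under 0.05 there were 1719 probe sets, 9.01% of those tested, with 449 higher and 1270 lower at 6 h. With each array centred on its median, 273 of 2246 such probe sets were higher and 1973 lower. The median difference of all probe sets was -0.049. Over genes, 327 (2.43%) were higher and 841 (6.26%) lower at an unadjusted p under 0.05, and these 2 shares are the background against which the counts of each gene list are set below. In 146 genes (1.09%) every 6 h array was above every 1 h array, and in 449 genes (3.34%) every 6 h array was below.

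The signal of added control transcripts moved with the comparison. The 9 probe sets for control transcripts that are added to every hybridization mix averaged 10.03 ± 0.17 at 6 h, against 9.34 ± 0.13 at 1 h (SD, n = 4 each), with no overlap (two-sided exact permutation p = 0.0286, the smallest that 4 against 4 allows; adjusted p = 0.114 over 4 array measures). The same controls lay between 9.0 and 9.24 on Air brain arrays of 3 h and between 9.69 and 9.98 on those of 24 h, and PH3 brain arrays lay between 9.19 and 9.35 at 1 h and between 9.56 and 10.03 at 6 h. A hybridization batch and the time therefore cannot be told apart between 6 h and 1 h, whereas the ranges of 6 h and 24 h overlapped. Signal from the 3' end over the 5' end of actin, a sign of RNA integrity, was 3.63 ± 0.36 at 6 h against 3.51 ± 0.15 at 1 h (SD, n = 4 each; two-sided exact permutation p = 0.571), and that of GAPDH 0.97 ± 0.20 at 6 h against 0.74 ± 0.16 at 1 h (SD, n = 4 each; two-sided exact permutation p = 0.114). Correlations between arrays of 1 group ran from 0.984 to 0.992 at 6 h and from 0.977 to 0.991 at 1 h.

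**Figure D1:**
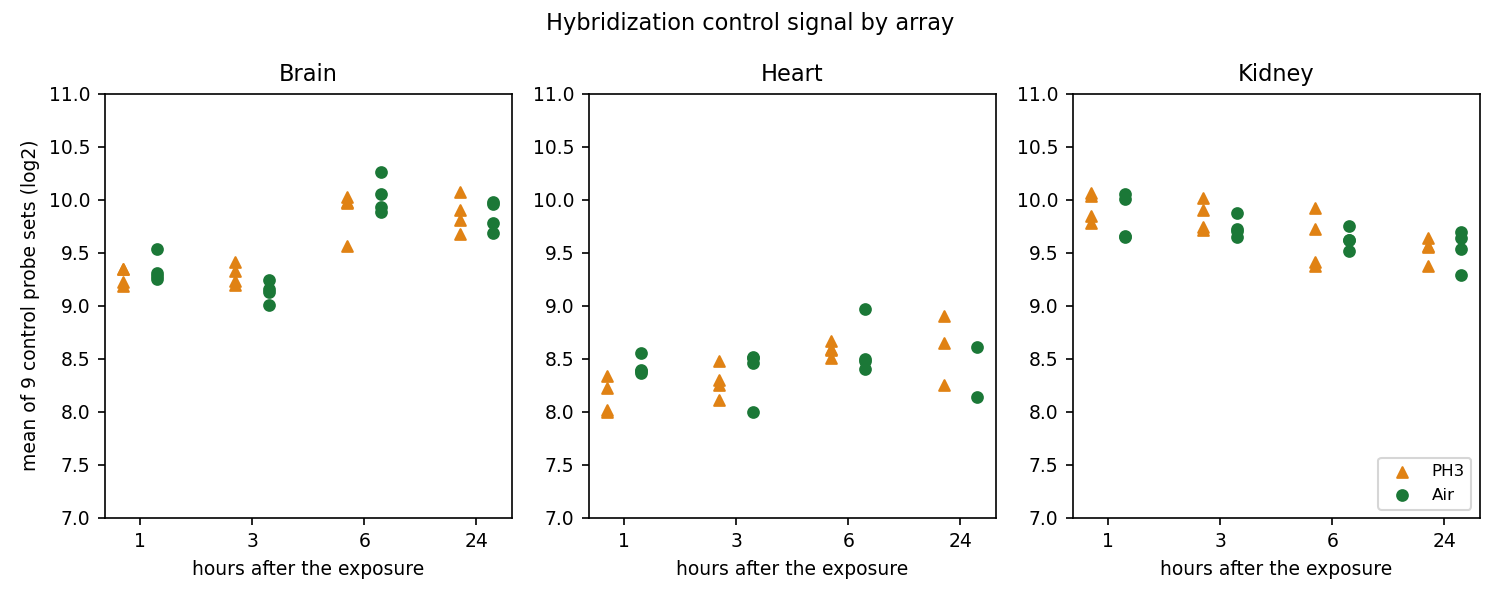
Mean log2 signal of the 9 hybridization control probe sets (vertical axis) by hours after the exposure (horizontal axis) in brain, heart and kidney, with 1 point per array, triangles for PH3 and circles for Air. Brain arrays of 6 h and 24 h lie above those of 1 h and 3 h in both exposures, with Air brain at 9.88 to 10.26 at 6 h and 9.25 to 9.53 at 1 h.

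The brain markers were present on all 8 arrays: the neuron list averaged between 9.42 and 9.57 at 6 h and between 9.49 and 9.72 at 1 h, and the astrocyte list between 9.96 and 10.20 at 6 h and between 10.03 and 10.11 at 1 h. Transcripts of other organs stood beside them on some arrays. Gh1, which encodes growth hormone and is made in the anterior pituitary, had 7.15, 4.16, 4.61 and 3.99 in the brains of 6 h rats 126, 132, 138 and 156, against 13.37, 12.36, 4.47 and 13.47 in the brains of 1 h rats 96, 107, 163 and 168. It was thus high on 3 of the 1 h arrays and near the low end of the signal scale on that of rat 163, and the difference of -5.94 ± 1.51 did not pass (adjusted p = 0.247). Prl, which encodes prolactin, had 6.48, 3.54, 3.96 and 3.52 at 6 h, against 11.25, 10.50, 3.83 and 11.18 at 1 h. Cga (the shared subunit of the glycoprotein hormones), Tshb (thyrotropin), Lhb (lutropin), and Pou1f1, the transcription factor of growth hormone, prolactin and thyrotropin cells, divided the 1 h arrays in the same way. Pomc, the corticotropin precursor of other pituitary cells, stayed between 3.42 and 3.77 on all 8 arrays.

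In all, 10 of the 11 listed pituitary and pineal genes were measured, and 8 were lower at an unadjusted p under 0.05, against 6.26% of all genes. The median difference of the 10 was -1.97. Their mean level ran from 3.60 to 4.57 at 6 h and from 3.74, in rat 163, to 7.57 at 1 h. Among PH3 brains of 1 h, rat 98 had Gh1 at 13.01, and the Air brains of 3 h and 24 h averaged 4.01 and 4.45.

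The 6 h array of rat 126 carried a different set. Smr3b, a gene of the submandibular salivary gland, had 13.47 in rat 126 and 3.56, 3.14 and 3.26 in the other 6 h rats, against 3.19, 3.09, 3.31 and 3.64 at 1 h. Oprpn had 13.70, 3.84, 3.52 and 3.58 at 6 h, against 3.76, 3.55, 3.56 and 3.57 at 1 h. Both were thus high on 1 array and at the low end of the scale on the other 7, and no other array of the series exceeded 3.69 for Smr3b. On the array of rat 126, 21 genes were over 4-fold higher than on any other of the 32 brain arrays, among them the kallikreins Klk1b3, Klk1c2 and Klk1c9, Pip, Car6 and Lpo, while 27 brain arrays had no such gene. Hepatocyte transcripts such as Alb, the serum albumin gene, were high on an array of each group: Alb had 7.81, 7.87, 8.12 and 11.29 at 6 h, the last in rat 156, against 11.60, 8.91, 8.90 and 7.57 at 1 h, the first in rat 96. None of the 14 measured hepatocyte genes differed at an unadjusted p under 0.05. Values without the 3 arrays of 1 h with pituitary transcripts are given below for the immediate early, clock, cholesterol and fasting lists. Counts without single arrays are given for the immediate early and cholesterol lists. The part of salivary and hepatocyte transcripts in the clock and fasting lists was not tested, nor was the part of any of these transcripts in the other lists.

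**Figure D2:**
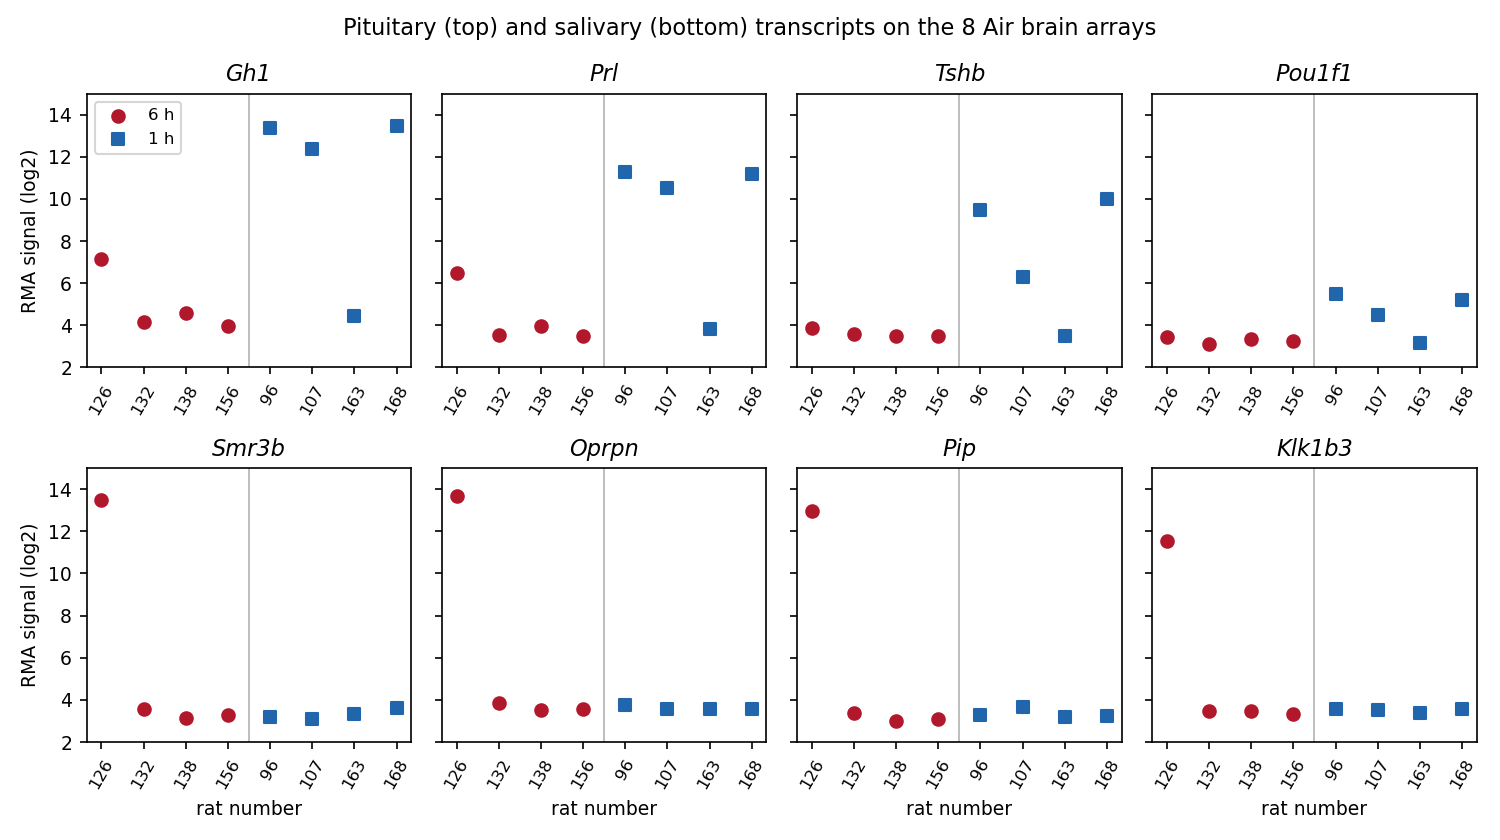
Log2 signal (vertical axis) of transcripts of the pituitary (top) and of the salivary gland (bottom) on each of the 8 Air brain arrays (horizontal axis), with 6 h rats as circles on the left and 1 h rats as squares on the right. The pituitary genes are high in 1 h rats 96, 107 and 168 and low in rat 163, and the salivary genes are high in 6 h rat 126 alone.

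The genes over 2-fold apart largely followed these arrays. There were 49 such genes, 17 lower and 32 higher at 6 h, and groups did not overlap in 7 of them. Of the 32 higher genes, 17 were among those high in rat 126 alone. Of the other 15, Atrx, a chromatin remodeller, had 8.17, 7.24, 8.48 and 4.24 at 6 h, against 5.63, 6.08, 7.27 and 4.25 at 1 h, so that both groups covered much of the same range. Among the 17 lower genes were Gh1, Prl, Cga, Tshb, Lhb, Dlk1, Pou1f1 and Six6, with the 1 h array of rat 163 inside the range of the 6 h arrays for each of them. The 1 h array of rat 163 lay inside the 6 h range for 35 of the 49. That count holds genes high in rat 126 alone, such as Smr3b. Rat 126 widened their 6 h range so far upward that a 1 h value at the low end readily falls inside. Of the 1168 genes at an unadjusted p under 0.05, the 1 h array lay inside the 6 h range for 172 in rat 96. It did so for 279 in rat 107, 494 in rat 163 and 90 in rat 168. The lower genes with no overlap were Egr2, Hoxa5, Ttll11, Nmu and Fosb.

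Most immediate early genes had a lower mean at 6 h. Of 37 listed genes 34 were measured, 28 had a lower mean at 6 h, 12 were lower and 0 higher at an unadjusted p under 0.05, and in 10 every 6 h array lay below every 1 h array. That is 12 of 34, set against 6.26% of all genes, and 10 of 34, set against 3.34%. The 28 of 34 with a lower mean stand beside 8373 of all 13439 genes. The median difference was -0.20, against -0.047 over all genes, and none of the 34 passed the adjusted threshold. The mean level of the list was 6.63, 6.76, 6.66 and 6.81 in 6 h rats 126, 132, 138 and 156, against 7.0, 7.0, 6.90 and 7.23 in 1 h rats 96, 107, 163 and 168. The 2 groups did not overlap. The count of 12 lower genes was 6 without the 6 h array of rat 138 and between 8 and 12 without any other single array. Without the 3 arrays of 1 h with pituitary transcripts, which leaves rat 163 alone at 1 h, 1 gene was lower at that level, 25 of the 34 had a lower mean at 6 h, and the median was -0.13.

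Promoters of Egr1, Egr2 and Nr4a1, which head the families described next, are shown for the regulatory letters they carry. Each is the run of 250 bases before the annotated start in RefSeq (build GRCr8), 5' to 3' on the gene's strand: Egr1 at chr18:26736828-26737077 on the plus strand, Egr2 at chr20:21054442-21054691 on the minus strand, and Nr4a1 at chr7:134259888-134260137 on the plus strand. Capitals mark CArG boxes, the sites bound by serum response factor, and CGTCA or TGACG, the core of the site bound by CREB, searched on both strands with no overlap between the 2 motifs here.
Egr1: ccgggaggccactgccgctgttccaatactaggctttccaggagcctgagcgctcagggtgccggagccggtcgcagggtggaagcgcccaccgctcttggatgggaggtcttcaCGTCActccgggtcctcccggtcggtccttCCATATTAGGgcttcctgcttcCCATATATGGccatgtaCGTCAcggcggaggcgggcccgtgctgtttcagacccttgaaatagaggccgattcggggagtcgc
Egr2: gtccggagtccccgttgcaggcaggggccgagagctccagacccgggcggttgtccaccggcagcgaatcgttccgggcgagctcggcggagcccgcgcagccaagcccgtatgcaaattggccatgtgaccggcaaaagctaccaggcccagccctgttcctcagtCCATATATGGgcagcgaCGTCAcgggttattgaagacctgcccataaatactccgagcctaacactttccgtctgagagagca
Nr4a1: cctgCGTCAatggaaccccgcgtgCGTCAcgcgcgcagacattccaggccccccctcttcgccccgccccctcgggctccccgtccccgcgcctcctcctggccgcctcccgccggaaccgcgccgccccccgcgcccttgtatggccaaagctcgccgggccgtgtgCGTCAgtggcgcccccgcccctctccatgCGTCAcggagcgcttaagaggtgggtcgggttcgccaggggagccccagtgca
The Egr1 window held 2 CArG boxes and 2 core CREB sites, the Egr2 window 1 of each, and the Nr4a1 window 0 CArG boxes and 4 core CREB sites. Promoters were matched for 26 of the 34 measured immediate early genes: 5 of them (19.2%) held a CArG box and 15 (57.7%) a core CREB site, against 1.5% and 19% of all 27457 promoters of the table. A match describes the letters of the window and shows no binding.

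Of the Egr genes, Egr2 had 5.43, 5.86, 5.36 and 5.97 at 6 h, against 7.45, 7.27, 6.88 and 7.24 at 1 h. Every 6 h array was lower, by 2.95-fold on average (-1.56 ± 0.38; adjusted p = 0.247), and the mean was 6.14 at 3 h and 7.07 at 24 h. Egr1 had 9.90, 10.21, 10.37 and 10.31 at 6 h, against 11.02, 10.93, 10.91 and 11.25 at 1 h. Its groups did not overlap either, with a difference of -0.83 ± 0.20 (adjusted p = 0.247) and means of 10.70 at 3 h and 10.88 at 24 h. Egr4 differed by -0.90 ± 0.29, also without overlap, while Egr3 was near the low end of the scale at 3.72 ± 0.11 at 6 h and 3.85 ± 0.11 at 1 h (SD, n = 4 each). Egr2 and Egr1 were past the threshold when only the 24 brain arrays of 1, 3 and 6 h were fitted (adjusted p = 0.00293 for Egr2 and 0.0299 for Egr1), where the spread of the 24 h brains no longer enters the error. Both also passed with array weights (adjusted p = 0.014 for each). That fit called 81 probe sets, among them the pituitary transcripts Gh1, Prl and Lhb, so passing it does not set the Egr genes apart from those. With the 16 brain arrays of 1 and 6 h, Egr2 passed (adjusted p = 0.0049) and Egr1 did not. With the 8 arrays alone no probe set passed (smallest adjusted p = 0.103).

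The nuclear receptor genes followed. Nr4a1 had 7.23, 7.64, 6.80 and 7.55 at 6 h, against 8.0, 8.11, 7.81 and 8.31 at 1 h. There was no overlap, and the difference was -0.75 ± 0.28 (adjusted p = 0.461). Its 3 h mean of 7.16 was close to that of 6 h, 7.30, and its 24 h mean of 8.08 close to that of 1 h, 8.06. Nr4a3 differed by -0.81 ± 0.22 with no overlap, and a second probe set of it by -0.80 ± 0.26. Nr4a2 differed by -0.29 ± 0.20, with overlapping groups.

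Of the AP-1 subunits, Fosb had 5.33, 5.30, 4.63 and 5.35 at 6 h, against 6.18, 6.43, 5.38 and 6.67 at 1 h. The groups were parted by the narrow step between 5.35 and the 5.38 of rat 163, and the difference was -1.01 ± 0.38 (adjusted p = 0.461). Fosl2 differed by -0.51 ± 0.18 and Junb by -0.60 ± 0.28, while Jun, at -0.19, and Jund, at -0.03, had unadjusted p-values above 0.05. Fos itself was not measured by a probe set with 1 symbol.

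Among genes that act at the synapse, Arc, which binds the endocytic machinery of glutamate receptors, had 7.84, 8.14, 7.28 and 8.15 at 6 h, against 8.38, 8.98, 8.14 and 9.18 at 1 h. Its groups overlapped narrowly, at 8.14 to 8.15, and the difference was -0.82 ± 0.37 (adjusted p = 0.514). Homer1, a scaffold of the postsynaptic density that is known to give both long and short activity-induced transcripts, was read by 5 probe sets that did not behave alike. The brightest had 9.74, 9.77, 9.72 and 9.52 at 6 h, against 9.93, 10.09, 10.17 and 9.74 at 1 h, a difference of -0.30 ± 0.18. A second probe set of Homer1 had 7.77, 7.88, 7.44 and 8.17 at 6 h, against 9.49, 9.57, 8.61 and 9.33 at 1 h, with no overlap and a difference of -1.43 ± 0.45 (adjusted p = 0.353). A further one differed by -1.58 ± 0.48, with rat 156 inside the 1 h range, and the other two Homer1 probe sets by -0.26 ± 0.26 and 0.02 ± 0.26. The files do not say which transcript each probe set reads. Counted by probe set, 22 of the 61 probe sets of the measured immediate early genes were lower and 0 higher at an unadjusted p under 0.05. Over all 19069 probe sets 1270 were lower and 449 higher at that level.

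Growth arrest and signalling members completed the lower group: Gadd45b, an inducible regulator of stress signalling, at -0.63 ± 0.19, Ier5 at -0.48 ± 0.23 and the kinase gene Sik1 at -0.40 ± 0.18. Others had means close together, such as the phosphatase gene Dusp1, with 9.32 ± 0.21 at 6 h and 9.37 ± 0.26 at 1 h (SD, n = 4 each), Ier2 at -0.05 ± 0.29 and Klf4 at 0.09 ± 0.27. Of the genes that respond later to activity, Bdnf, a neurotrophin, had 6.95, 6.57, 6.88 and 6.52 at 6 h, against 7.19, 7.65, 7.02 and 7.23 at 1 h. The groups did not overlap, and the difference was -0.54 ± 0.16 (adjusted p = 0.282). The list of activity-regulated and neuropeptide genes had 2 of 22 members lower at an unadjusted p under 0.05 (Bdnf and the neurotensin gene Nts). That stands beside 6.26% of all genes, and the median of the list was -0.22.

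**Figure D3:**
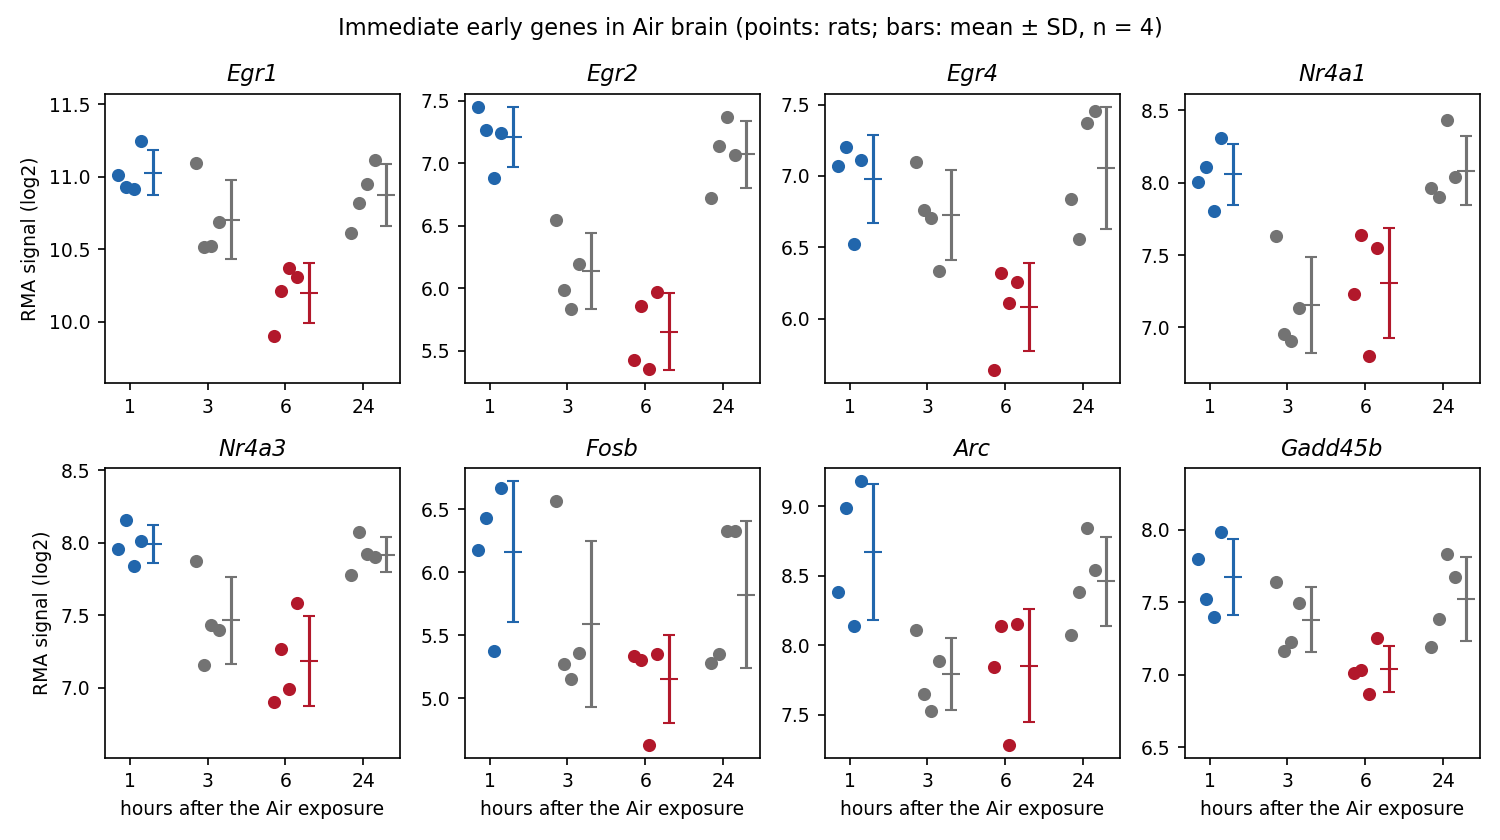
Log2 signal (vertical axes) of 8 immediate early genes in Air brain at 1, 3, 6 and 24 h after the exposure (horizontal axes), with a point per rat and the mean ± SD beside it (n = 4). Egr2 lies between 5.36 and 5.97 at 6 h and between 6.88 and 7.45 at 1 h, and the means of 24 h are nearer to those of 1 h than to those of 6 h.

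The clock genes moved little as a list and in opposite directions as single genes. Of 21 core loop genes 18 were measured, 2 were higher and 2 lower at an unadjusted p under 0.05, and the median was -0.02. Over all genes 2.43% were higher and 6.26% lower at that level. Per3, a period gene, had 8.15, 8.32, 8.22 and 7.90 at 6 h, against 7.71, 7.42, 7.92 and 7.52 at 1 h. The groups overlapped only between rats 156 and 163, and the difference was 0.51 ± 0.16 (adjusted p = 0.336), with means of 7.61 at 3 h and 7.37 at 24 h. Bmal1, the partner of CLOCK, had 5.92, 5.76, 5.84 and 5.92 at 6 h, against 6.28, 6.43, 6.11 and 6.24 at 1 h. Its groups did not overlap, and the difference was -0.40 ± 0.15 (adjusted p = 0.462).

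Dbp, an output factor driven by the clock, had 9.83, 9.97, 9.76 and 9.75 at 6 h, against 9.14, 9.23, 9.85 and 9.64 at 1 h. The 2 low values of rats 96 and 107 made the difference of 0.36 ± 0.14, and rats 163 and 168 were close to the 6 h rats. Nfil3, a repressor that binds the same sites as Dbp, had 6.20, 6.18, 5.94 and 6.89 at 6 h, against 6.77, 6.91, 6.29 and 6.99 at 1 h (-0.43 ± 0.17), with rat 156 above 2 of the 1 h rats. Nr1d2, which encodes REV-ERB beta, was at 0.34 ± 0.17, and Timeless at 0.31 ± 0.14. Per2 had 8.66 ± 0.13 at 6 h and 8.67 ± 0.20 at 1 h, and Cry1 7.97 ± 0.15 at 6 h and 7.97 ± 0.12 at 1 h (SD, n = 4 each). A second, dimmer probe set of Per2 did not behave alike and differed by -0.34 ± 0.11 (adjusted p = 0.354). Clock, at 3.61 at 6 h and 3.60 at 1 h, was near the low end of the scale, and Ciart was not measured by a probe set with 1 symbol. Without the 1 h arrays of rats 96, 107 and 168 the median of the core loop was 0.02, set against rat 163 alone, and Per3, Bmal1 and Dbp in rat 163 were each nearer to the 6 h arrays than the 1 h mean was.

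**Figure D4:**
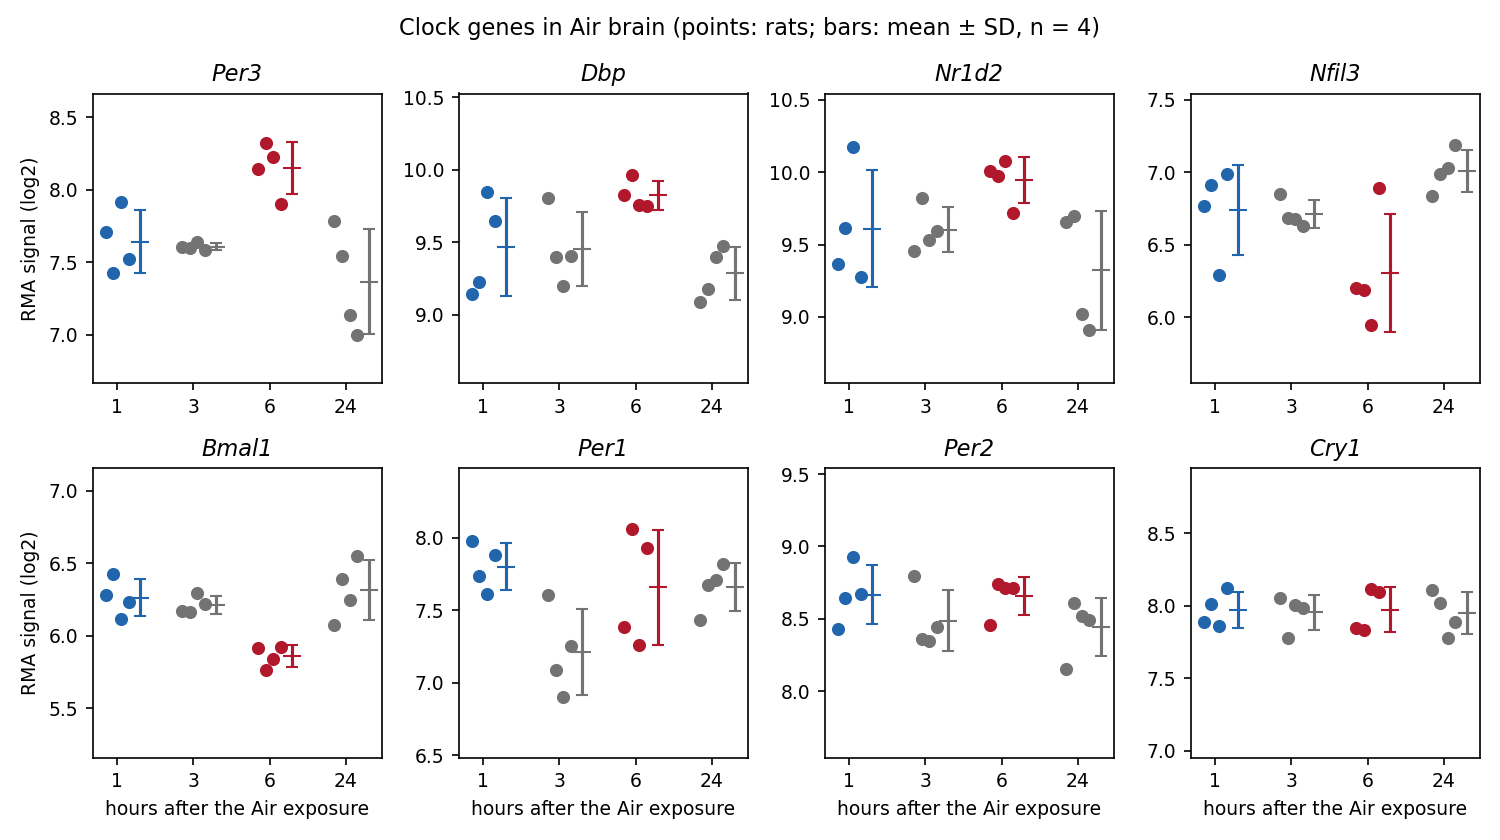
Log2 signal (vertical axes) of 8 clock genes in Air brain at 1, 3, 6 and 24 h after the exposure (horizontal axes), with a point per rat and the mean ± SD beside it (n = 4). Per3 lies between 7.90 and 8.32 at 6 h and between 7.42 and 7.92 at 1 h, Bmal1 lies below its 1 h values at 6 h, and Cry1 has like means at all 4 times.

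Targets of the glucocorticoid receptor, which answers the adrenal stress hormone, showed no common direction. Of 30 listed genes 28 were measured, none was past an unadjusted p of 0.05 by its brightest probe set, and the median was -0.03. A dimmer probe set of Cdkn1a was past that level, at -0.645 ± 0.311 (adjusted p = 0.547). Sgk1, a kinase induced by glucocorticoids, had 9.43, 9.93, 9.57 and 9.87 at 6 h, against 9.54, 9.14, 9.12 and 9.01 at 1 h, with an overlap only at rats 126 and 96 (0.50 ± 0.27). Fkbp5, a chaperone of the receptor, had 7.01 ± 0.10 at 6 h and 7.08 ± 0.32 at 1 h, and Tsc22d3 10.43 ± 0.15 at 6 h and 10.41 ± 0.22 at 1 h (SD, n = 4 each).

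Cholesterol synthesis genes were lower in 15 of the 17 measured of 22 listed, 7 of them at an unadjusted p under 0.05, with a median of -0.23 and 2 without overlap. Over all genes 8373 of 13439 had a lower mean, 6.26% were lower at that level and 3.34% were lower without overlap. Sqle, squalene epoxidase, had 9.05, 9.23, 9.12 and 9.20 at 6 h, against 9.52, 9.27, 9.79 and 9.60 at 1 h, and differed by -0.40 ± 0.10 (adjusted p = 0.247). Cyp51, lanosterol demethylase, differed by -0.34 ± 0.11, and Mvd, Lss, Acat2, Fdps and Msmo1, other enzymes of the pathway, by -0.52 to -0.21. Idi1 had the highest difference of the list, at 0.20 ± 0.27. The count of 7 was 4 without the 6 h array of rat 138 or the 1 h array of rat 96, 10 without that of rat 107, and 4 without the 3 arrays with pituitary transcripts, where the median was -0.27.

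Genes of fasting, FOXO and PPAR targets had 6 of 22 measured members lower and 0 higher at an unadjusted p under 0.05, with a median of -0.13. The shares over all genes at that level were 6.26% lower and 2.43% higher. Irs2, an adaptor of the insulin receptor, had 8.17, 8.24, 8.19 and 8.14 at 6 h, against 8.72, 8.85, 8.34 and 8.96 at 1 h. The 6 h rats were close together and all below the 1 h rats, of which rat 163 was the lowest (-0.53 ± 0.14; adjusted p = 0.265). Plin2, a coat protein of lipid droplets, differed by -0.52 ± 0.15, Ucp2 by -0.47 ± 0.19 and Sesn3 by -0.37 ± 0.13. Without the 3 arrays with pituitary transcripts, which leaves rat 163 alone at 1 h, the median was -0.10.

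The other stress lists are set against 6.26% of all genes lower and 2.43% higher at an unadjusted p under 0.05. Heat shock and chaperone genes had 4 of 28 lower, among them the co-chaperone Bag3 at -0.53 ± 0.20 and Hspb1 at -0.52 ± 0.25. Hypoxia-inducible factor targets had 4 of 22 lower, led by Ndrg1 at -0.37 ± 0.13. The unfolded protein and integrated stress list had 2 of 19 lower, Ddit3 at -0.32 ± 0.11 and Atf4 at -0.20 ± 0.08. None of the 10 metallothionein and zinc transport genes was past that level, and of 27 respiratory chain genes 1, Sdhc, was lower at -0.30. No gene of these lists was higher at an unadjusted p under 0.05. Targets of NRF2, the antioxidant regulator, had 2 of 16 lower, interferon-stimulated genes 2 of 24 and inflammatory mediators 2 of 24, the chemokine genes Ccl3 and Ccl4. Cell cycle genes had 1 higher and 2 lower of 27, and cytoplasmic ribosomal protein genes 1 lower of 19 with a median of 0.01.

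**Figure D5:**
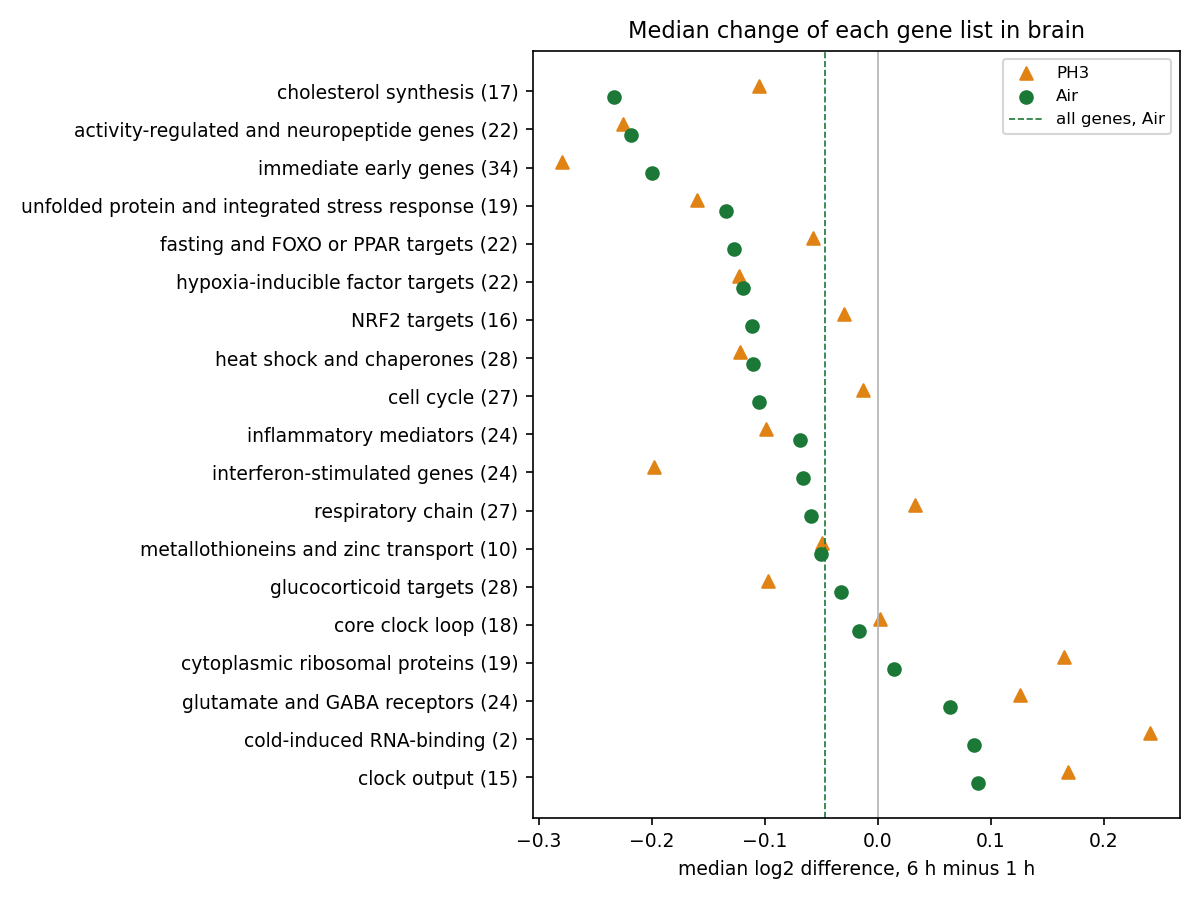
Median log2 difference, 6 h minus 1 h (horizontal axis), of each pathway list in brain (vertical axis, with the number of measured genes in brackets), as triangles for PH3 and circles for Air, with a line at 0 and a dashed line at the median of all genes in Air (-0.047). Cholesterol synthesis has the lowest median in Air, at -0.23, with -0.11 in PH3, and immediate early genes the lowest in PH3, at -0.28, with -0.20 in Air.

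Among cell types, oligodendrocyte genes had a median of -0.24, with 10 of 11 lower in the mean and 3 (Mog, Cnp and Aspa) at an unadjusted p under 0.05. Over all genes 8373 of 13439 were lower in the mean, and 6.26% were lower and 2.43% higher at that level. Mog, a protein of the myelin surface, had 9.68, 10.15, 9.76 and 9.63 at 6 h, against 10.46, 10.04, 10.23 and 10.36 at 1 h (-0.47 ± 0.18), with rats 132 and 107 in the overlap. In PH3 brain the median of the same list was 0.21. Bulk tissue cannot tell fewer cells of a type from less RNA per cell. None of the 6 genes of oligodendrocyte precursors, 9 of pericytes and smooth muscle, 10 of fibroblasts and meninges, 10 of choroid plexus and ependyma, 4 of red blood cells and 7 of neutrophils was past that level, and 2 of 11 T and natural killer cell genes were lower. Microglia genes had 2 of 14 lower, Cx3cr1 and Trem2, and a median of -0.19. The astrocyte list had Slc1a3, a glutamate transporter, higher at 0.32 ± 0.12 and a median of -0.03. Endothelial genes had 2 of 10 higher, the transporters Abcb1a at 0.70 ± 0.29 and Slco1a4 at 0.50 ± 0.24, and a median of -0.09. Of the glutamate and GABA receptor genes 2 of 24 were higher, Gabra2 at 1.06 ± 0.40 and Grik2 at 0.52 ± 0.25.

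Of the region markers, 3 Hox genes had groups that did not overlap, and none passed the adjusted threshold. In 3.34% of all genes every 6 h array was below every 1 h array. Hoxa5, a patterning gene that in adults is expressed in the caudal brain stem and spinal cord, had 5.24, 4.49, 4.53 and 4.81 at 6 h, against 6.21, 5.61, 6.33 and 6.47 at 1 h. Its groups did not overlap (-1.39 ± 0.53; adjusted p = 0.462), and neither did those of Hoxb5 (-0.67 ± 0.30) and Hoxc4 (-0.65 ± 0.26). The whole list for cerebellum and brain stem, of which these were 3 of 13 measured genes, had a median of -0.02 and overlapping levels, 6.54 to 7.08 at 6 h and 6.42 to 7.14 at 1 h. Hoxa5 averaged 5.83 at 3 h and 4.25 at 24 h. Pmch, which encodes a hypothalamic neuropeptide precursor, had 9.66, 9.17, 9.77 and 9.99 at 6 h, against 10.70, 9.52, 6.21 and 6.83 at 1 h, so that the 1 h rats differed from each other by more than the groups did. The medians of the striatum, hippocampus, cortex, thalamus and hypothalamus lists ran from -0.18 to 0.11.

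The 20 genes with the smallest p-values, none of which passed, held 2 that were higher at 6 h, Lin9 and Clip1, and 18 that were lower. They held Egr1, Egr2 and several genes that were high on the 1 h arrays with pituitary transcripts, among them Pou1f1, Fshb, Lhb and Dlk1. Of the 20, 9 had a mean signal under 4.032, the 25th percentile of all probe sets. Cd93, a surface protein of endothelium and myeloid cells, had 5.0, 4.99, 4.93 and 6.02 at 6 h, against 6.59, 6.40, 5.71 and 6.27 at 1 h. Rat 156 alone overlapped the 1 h rats, and the difference of -1.01 ± 0.20 (adjusted p = 0.233) became -1.27 ± 0.18 (adjusted p = 0.00153) without it. As rat 156 was the array that stood apart on Cd93, the fit without it is no separate support. A second, dim probe set of Cd93 differed by -0.18 ± 0.09. Cx3cr1, the fractalkine receptor of microglia, had 4.12, 4.19, 4.08 and 4.18 at 6 h, against 4.53, 4.56, 4.54 and 4.66 at 1 h, a small shift of -0.43 ± 0.10 without overlap.

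Clip1, a protein that tracks the growing ends of microtubules, had 8.48, 8.44, 8.88 and 8.27 at 6 h, against 7.60, 7.58, 8.16 and 7.83 at 1 h. All 6 h rats were above all 1 h rats, by 0.72 ± 0.18 (adjusted p = 0.247), although 2 dimmer probe sets of Clip1 gave 0.52 ± 0.27 and -0.14 ± 0.13. Glo1, which detoxifies methylglyoxal, had 10.51, 10.42, 10.50 and 10.49 at 6 h, against 10.80, 10.60, 10.80 and 10.81 at 1 h, again without overlap (-0.27 ± 0.07; adjusted p = 0.247). Pitx1, the first by p, had 3.78, 3.41, 3.55 and 3.70 at 6 h, against 4.06, 4.43, 3.93 and 4.75 at 1 h, all near the low end of the scale. Pitx1, Nmu, Dapl1 and Znf750 were each highest in 1 h rats among 96, 107 and 168 and lowest at 1 h in rat 163. Without the 1 h array of rat 163 they passed limma, as did Pou1f1, Fshb, Lhb and Dlk1. The adjusted p was then 0.00409 for Pitx1, Nmu and Dapl1 and 0.0115 for Znf750. Leaving out the 1 h array that was low for these genes widens their differences by itself, so these calls are no separate support.

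The intermediate and later Air brains place the 6 h values in time, and these comparisons share arrays with each other. Between 3 h and 1 h 0 of 19069 probe sets passed limma (0%; smallest adjusted p = 0.880), with 432 at an unadjusted p under 0.05. Between 6 h and 3 h 0 passed (0%; smallest adjusted p = 0.438), with 1000 at an unadjusted p under 0.05. The immediate early list had a level of 6.90 to 7.23 at 1 h, 6.65 to 7.08 at 3 h, 6.63 to 6.81 at 6 h and 6.87 to 7.24 at 24 h. The median difference of the list was -0.11 for 3 h against 1 h and -0.12 for 6 h against 3 h.

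Between 6 h and 24 h, a comparison added after the data were seen and made on arrays of like hybridization control signal, 3 of 19069 probe sets passed (0.0157%), with 1392 at an unadjusted p under 0.05. Gpd1, cytosolic glycerol-3-phosphate dehydrogenase, had 9.64, 9.63, 9.41 and 9.65 at 6 h, against 8.08, 8.50, 8.24 and 8.36 at 24 h, and was higher at 6 h by 1.29 ± 0.21 (adjusted p = 0.00998). Between 6 h and 1 h it differed by 0.03 ± 0.21. Clip1 was higher at 6 h than at 24 h by 1.17 ± 0.18 (adjusted p = 0.00935), with 7.44, 7.45, 6.95 and 7.54 at 24 h. Lmo2, a transcriptional adaptor, was lower at 6 h than at 24 h by -0.74 ± 0.13 (adjusted p = 0.0346), with means of 7.36 ± 0.14 at 6 h and 8.10 ± 0.20 at 24 h (SD, n = 4 each), and lower than at 1 h by -0.49 ± 0.13. Per3 was higher at 6 h than at 24 h by 0.78 (adjusted p = 0.0865), and Egr1 differed by -0.68 (adjusted p = 0.632), and neither passed. The count was 0 without the 24 h array of rat 89, 1 without the 6 h array of rat 126, 132 or 138, and 6 without the 24 h array of rat 84.

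PH3 brains, from other rats, showed how the same interval looked after phosphine. Between 6 h and 1 h in PH3 brain 3 of 19069 probe sets passed (0.0157%), with 2872 (15.1%) at an unadjusted p under 0.05, and over genes 658 (4.90%) were higher and 1355 (10.1%) lower. Tnfrsf11b, the decoy receptor osteoprotegerin, rose by 1.33 and Itprid2 by 0.69 (adjusted p = 0.0472 for each), and Tmem252 fell by 1.12 (adjusted p = 0.0108). The count was 0 without the 6 h array of rat 140, 1 without those of rats 135 or 115, 30 without that of rat 109 and 118 without that of rat 98. In Air brain the same 3 probe sets differed by -0.32, 0.26 and 0.06. No probe set passed for the difference of the 2 changes (0 of 19069, or 0%; smallest adjusted p = 0.442; 671 at an unadjusted p under 0.05), so that no gene was shown to follow a different course with phosphine.

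Across 13439 genes the differences of PH3 and Air brain correlated at r = 0.569. Genes are not independent replicates, the rats were different, and the arrays of both exposures shared the step in hybridization control signal between the times. Of the 1168 genes at an unadjusted p under 0.05 in Air, 1029 (88.1%) had the same sign in PH3, against 70.9% of all genes. Egr2 had 5.52, 6.24, 5.64 and 5.72 in PH3 brains at 6 h, against 7.12, 7.58, 7.22 and 7.41 in PH3 brains at 1 h, a difference of -1.55 (adjusted p = 0.0727) beside -1.56 in Air. The second Homer1 probe set differed by -1.26 in PH3 and -1.43 in Air, Egr4 by -0.97 in PH3 and -0.90 in Air, Fosb by -1.09 in PH3 and -1.01 in Air, and Arc by -1.07 in PH3 and -0.82 in Air. The immediate early list had 12 of 34 lower in PH3, with a median of -0.28 and a level of 6.63 to 6.99 at 6 h and 6.95 to 7.25 at 1 h. Nfil3 differed by -0.73 in PH3 (adjusted p = 0.0727) and Clip1 by 0.89 (adjusted p = 0.0698). Cholesterol synthesis had 1 of 17 lower in PH3, with a median of -0.11.

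The hearts and kidneys of the same 8 Air rats were fitted with the brains, over 24 arrays, so that their counts and that of brain come from fits of different form. In heart 19 of 19069 probe sets passed between 6 h and 1 h (0.0996%), 7 higher and 12 lower, and in kidney 2703 did (14.2%), 1355 higher and 1348 lower. These counts moved widely with single arrays. Kidney had between 22 and 6070 without 1 kidney array. The count was 22 without that of rat 107, 28 without that of rat 132 or rat 168, 1566 without that of rat 138 and 6070 without that of rat 96. It was 0 when all kidney arrays were fitted. Heart had 5 without the heart array of rat 138, 10 without that of rat 132, 11 without that of rat 168, and 0 when all heart arrays were fitted. No probe set passed for the difference of the change between brain and heart (0 of 19069, or 0%; smallest adjusted p = 0.0643; 1422 at an unadjusted p under 0.05) or between brain and kidney (0 of 19069, or 0%; smallest adjusted p = 0.186; 2065 at an unadjusted p under 0.05). The first of these counts was 20 without all arrays of rat 163 and the second 513 without all arrays of rat 96. Over 13439 genes the brain differences correlated at r = -0.015 with those of heart and 0.427 with those of kidney, and of the 1168 brain genes 51.0% had the same sign in heart, against 47.0% of all genes, and 77.8% in kidney, against 67.3% of all genes.

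The values of single genes are set side by side, and none was shown to differ between organs. The kidney calls named here are those of the fit over 24 arrays, and all are lost when all kidney arrays are fitted, where none passed. Egr1 differed by -0.83 in brain and 0.51 in heart, and the difference between these did not pass (-1.34; adjusted p = 0.344). Arc differed by -0.82 in brain and 0.51 in heart, and fell by 1.08 in kidney (adjusted p = 0.0225). Per3 differed by 0.51 in brain and rose by 1.10 in kidney (adjusted p = 0.00658), with a difference of -0.59 between them (adjusted p = 0.443). Nr1d2 differed by 0.34 in brain and rose by 1.00 in kidney (adjusted p = 0.0225), and Nfil3 differed by -0.43 in brain and fell by 0.96 in kidney (adjusted p = 0.0475). Npas2, a relative of CLOCK, differed by -0.23 in brain and fell by 1.89 in kidney (adjusted p = 0.0054). Clip1 differed by 0.72 in brain and rose by 0.65 in kidney (adjusted p = 0.0313). Immediate early genes had a median of 0.18 in heart and -0.26 in kidney, beside -0.20 in brain.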

How the data were processed

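Gene expression was measured in brain, heart and kidney RNA of single rats with Affymetrix 3' expression arrays, labelled with a 3' in vitro transcription kit per the labels' protocols. The deposited values are log2 signals, which the authors made by RMA with Affymetrix Expression Console and Partek, per the submitters' processing notes (versions not given in the sources used here). They ran from 2.60 to 14.41, and no 2 columns were identical. They were used as deposited. Genes were named from the platform annotation: 19069 of 31139 probe sets had 1 symbol, 572 several and 11498 none. Of the 19069, 18989 matched the RefSeq table of build GRCr8 by gene ID, and 0 of these symbols differed. The number of arrays limits the precision.

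limma 3.58.1 in R 4.3.3 fitted 1 mean per group over 32 brain arrays in 8 groups, and over 24 Air arrays of brain, heart and kidney at 1 and 6 h for the comparisons between tissues. eBayes let the variance follow the mean signal, and Benjamini-Hochberg adjustment ran over all probe sets with 1 symbol. The fit was tested on simulated data. Array measures were compared by exact permutation tests. Same-numbered arrays of different tissues come from the same rat. Deviations of the same rat from the group means correlated at 0.049 to 0.141 between brain and heart and at -0.171 to 0.469 between brain and kidney.

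The rule for named genes took the 20 genes with the smallest p, since fewer than 20 passed, and a panel of 34 clock, stress and immediate early genes, of which 29 were measured. Other genes were named after their values were seen: members of the 39 gene lists, pituitary, salivary and liver genes, the Homer1 probe sets, genes over 2-fold apart and those of the 6 h to 24 h comparison. The comparison, its lists and its tests were chosen with earlier results of these data known. Alternatives were other sets of arrays in the fit, array weights, no trend, a robust fit, other probe set filters, other scaling, a block for the rat, and each array left out in turn. Lung and liver arrays were not used here.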

Additional observations from a re-analysis of the deposited data

Results flagged for a closer look

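Of 128 groups looked at, made of 64 genes in the 4 arrays of 6 h and the 4 arrays of 1 h, 16 held an array that stood far from the other three by Dixon's criterion. Chance gives about 1 in 20 groups, but several of the genes, among them Smr3b, Oprpn, Pip, Gh1 and Prl, were named because single arrays stood apart on them, so the count of 16 is no test. Of the 16, 6 were in rat 126, 3 in rat 138, 3 in rat 163, and 1 in each of 4 other rats.

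In the 6 h array of rat 126, Smr3b was at 13.47 (next value 3.56), Oprpn at 13.70 (next 3.84) and Pip at 12.98 (next 3.38), Prl was at 6.48 (next 3.96), Per2 was low at 8.46 (next 8.71) and Gapdhs high at 3.84 (next 3.63). In the 1 h array of rat 163, Gh1 was low at 4.47 (next 12.36), Prl at 3.83 (next 10.50) and Nr1d1 at 6.67 (next 7.14). In the 6 h array of rat 138, Fosb was low at 4.63 (next 5.30), Dlk1 at 3.64 (next 4.26) and Gpd1 at 9.41 (next 9.63). The others were Cd93 in the 6 h array of rat 156 at 6.02 (next 5.0), Glo1 in the 1 h array of rat 107 at 10.60 (next 10.80), Clock in the 1 h array of rat 168 at 3.47 (next 3.64) and Oprpn in the 1 h array of rat 96 at 3.76 (next 3.57).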

How the results depend on the processing

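The count of 0 for 6 h against 1 h in Air brain was also 0 with the 8 arrays alone, no trend, a robust fit, without the dimmest probe sets, with 1 probe set per gene, after quantile scaling and after median centring. It was 2 with the 16 brain arrays of 1 and 6 h (Egr2 and Homer1), 3 with the 24 of 1, 3 and 6 h (Egr1 as well), 81 with array weights, 9 over all probe sets of the array (hybridization controls), and 0 to 25 without any 1 array, with 25 without the 1 h array of rat 163 and 1 (Cd93) without the 6 h array of rat 156. Added after seeing the data, leaving out the 1 h arrays of rats 96, 107 and 168 gave 1 (Plekhh1), and so did leaving out rat 126 as well, while leaving out rats 156 and 96 gave 1 (Cd93). A value of a named gene counted as reversed where its sign changed and the difference exceeded its standard error, so smaller changes of sign were not counted. Of 1041 values of the 48 named genes, 33 were past the threshold and 3 reversed, all 3 in added settings. These were Hlf to 0.469 without those 3 arrays and to 0.496 without rat 126 too, and Nr1d2 to -0.255 without those 4 arrays.

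With array weights the counts were 519 for PH3 brain, 9 for 3 h against 1 h, 2 for 6 h against 3 h and 23 for 6 h against 24 h, which was 1 with its 8 arrays alone. Leaving out 1 array gave 0 to 118 for PH3 brain (118 without rat 98, 30 without rat 109, 1 without rat 115 or 135, 0 without rat 140), 0 to 14 for 3 h against 1 h (14 without rat 163), 0 to 1 for 6 h against 3 h and 0 to 6 for 6 h against 24 h. Heart had 0 with all heart arrays and 5 to 22 without 1 heart array (10 without that of rat 132, 5 without that of rat 138, 11 without that of rat 168). Kidney had 0 with all kidney arrays and 22 to 6070 without 1 kidney array (6070 without that of rat 96, 1566 without that of rat 138). Brain against heart had 1 with 1 probe set per gene, 1 with the 2 tissues alone and 0 to 20 without 1 rat (20 without rat 163, 3 without rat 107 or 126). Brain against kidney had 0 to 513 (513 without rat 96, 17 without rat 163). With the rat as a replicate block both tissue differences had 0 calls, so the block changed no call. The difference between PH3 and Air had 0 in every alternative. The causes were not tested.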
